A study of Homo sapiens with 3 samples.

Results

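The major histocompatibility complex on the short arm of chromosome 6 was examined for binding of HA-tagged TFE3, with its summits taken by position alone in 4 segments on hg19. Class I ran from base 29640001 to 31480000, class III from 31480001 to 32190000, class II from 32190001 to 33120000 and extended class II from 33120001 to 33500000. The complex held 292 of the 62287 summits of replicate 1 and 344 of the 72647 summits of replicate 2 on chromosomes 1 to 22 and X. A summit is a single base that the authors listed with a score for a bound region. The series consists of 2 libraries of chromatin immunoprecipitation and sequencing through the HA tag and 1 input DNA library, which entered no comparison. All came from HK-2, an established human kidney proximal tubule line, carrying an HA-TFE3 gene inducible by doxycycline. Per the labels' protocols the culture lasted 24 h with or without doxycycline at 0.2 µg/ml, but no label says which libraries were induced. Nothing states that the replicates were separate cultures, so their spread may be technical.

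TFE3, a transcription factor of the MiT/TFE family, is known to bind E-boxes with the core CACGTG near lysosomal and autophagy genes. The class I segment carries HLA genes such as HLA-B and HLA-C, whose products present peptides from inside the cell to cytotoxic T cells. Class III lies between class I and class II and carries no HLA genes. It holds the cytokine gene TNF, the complement genes C2 and CFB, the heat shock genes HSPA1A and HSPA1B and NEU1, which encodes the lysosomal sialidase. The class II segment carries HLA-DR, HLA-DQ and HLA-DP, which present peptides from the endosomal and lysosomal route to helper T cells, together with the peptide transporter genes TAP1 and TAP2 and the immunoproteasome genes PSMB8 and PSMB9. Extended class II includes TAPBP, which loads class I molecules, and the chromatin genes DAXX and RING1. In the gene order of RefSeq on GRCh38.p14, 59 protein-coding genes run from MCCD1 to NOTCH4 in class III and 50 from ZFP57 to MICB in class I. Another 20 run from TSBP1 to HLA-DPB1 in class II. These landmark genes need not coincide with the segment ends. No hg19 gene annotation was used, so no summit was assigned to a gene.

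The core that TFE3 recognises was looked up in RefSeq promoters of GRCh38.p14, from 250 bases before to 50 bases after the gene start, for genes listed by segment. The lists were not checked against the hg19 segment limits, so a listed gene may lie outside its segment. CACGTG, a palindrome that reads the same on both strands, was in 3 of 18 class III promoters, 2 of 14 class I promoters, 2 of 15 extended class II promoters and 0 of 15 class II promoters. Of all RefSeq promoters 7.43% held it. The motif TCATGTG, searched on both strands, was only in that of TCF19 in class I, against 2.99% of all. The stretches below show the core in capitals, 5′ to 3′ in the direction of the gene, in promoters upstream of the gene start, and are given as examples of the recognised sequence in 3 of the segments. Their positions are on GRCh38.p14 and cannot be set beside the hg19 summits.
NEU1 (lysosomal sialidase, class III), chr6:31862932-31862957, minus strand: gctgcgtgatCACGTGggaggagatg
C2 (complement component, class III), chr6:31897713-31897738, plus strand: cgccccgggtCACGTGggcgagggag
ABCF1 (translation factor, class I), chr6:30571353-30571378, plus strand: gcgaagctcgCACGTGcgcagcccgg
CUTA (extended class II), chr6:33418335-33418357, minus strand: gccccctCACGTGacagtggaac
The core begins 126 bases before the start of NEU1, 60 before that of C2, 79 before that of ABCF1 and 243 before that of CUTA. The stretch of C2 also lies in the promoter of EHMT2, a histone methyltransferase gene on the opposite strand, so these 2 promoters share their core. The other matches, a second core of CUTA and those of GNL1 and WDR46, began after the gene start. A match is a description of the letters and not a binding site.

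HA-TFE3 summits were dense in class III, class I and extended class II and sparser in class II. Class III held 71 summits in replicate 1 and 89 in replicate 2, or 100.0 and 125.4 per Mb. Class I held 154 and 174, or 83.7 and 94.6 per Mb. Extended class II held 36 and 39, or 94.7 and 102.6 per Mb. Class II held 31 and 42, or 33.3 and 45.2 per Mb. In each library the class II density was the lowest of the 4 segments and the class III density the highest.

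Shared summits were those of mutual nearest neighbours between the libraries within 100 bp. The complex held 236 shared summits, of which 56 were in class III, 124 in class I, 29 in extended class II and 27 in class II. Their densities were 78.9 per Mb in class III (95% Poisson interval 59.6 to 102.4), 67.4 in class I (56.1 to 80.4), 76.3 in extended class II (51.1 to 109.6) and 29.0 in class II (19.1 to 42.2). No shared pair spanned 2 segments. The intervals cover counting error only.

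The 6 pairs of segments were compared by the exact conditional binomial test of shared summits given the segment lengths, two-sided with Benjamini-Hochberg adjustment over the 6 pairs. Class III had 2.72-fold the density of class II (95% interval 1.69 to 4.47, exact adjusted p = 6.31e-05). Extended class II had 2.63-fold the density of class II (1.50 to 4.61, exact adjusted p = 0.000685). Class I had 2.32-fold the density of class II (1.52 to 3.66, exact adjusted p = 6.31e-05). Among the other 3 segments no difference passed the test. Class III over class I was 1.17-fold (0.838 to 1.62, exact adjusted p = 0.479), class III over extended class II 1.03-fold (0.649 to 1.68, adjusted p = 1) and extended class II over class I 1.13-fold (0.728 to 1.71, adjusted p = 0.625). All summits of replicate 2 gave 1.33-fold for class III over class I, just past the threshold (exact test, adjusted p = 0.0493), whereas those of replicate 1 gave 1.19-fold (adjusted p = 0.351). Neighbouring summits are not independent, so these p-values describe the lists and not the cells.

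**Figure D1:**
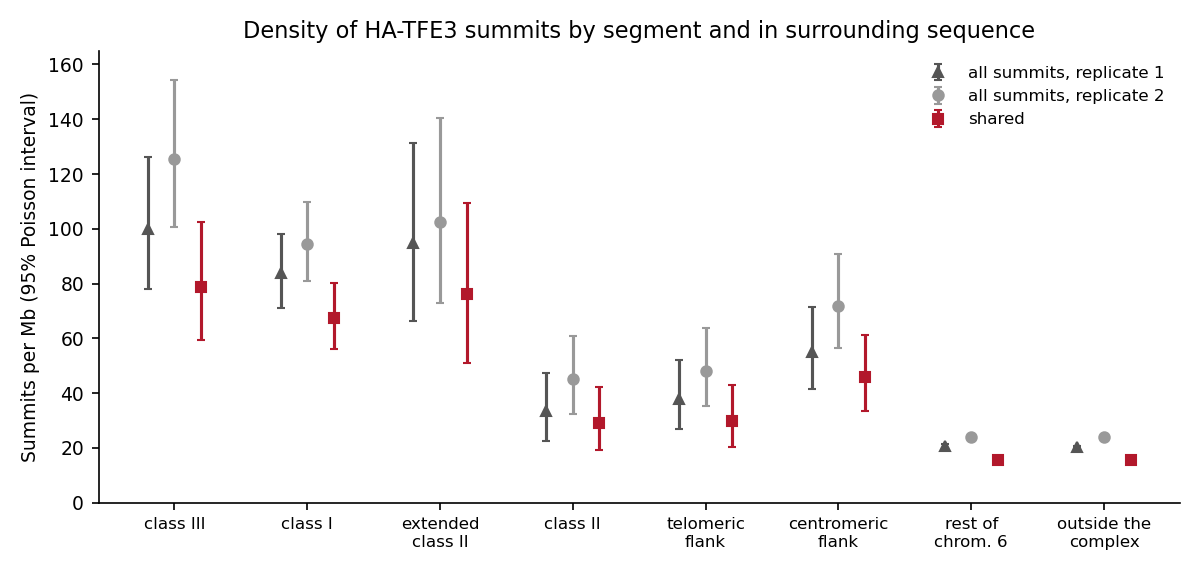
Summits per Mb in the 4 segments, in flanks of 1 Mb on each side, in the rest of chromosome 6 and outside the complex, for all summits of each library and for shared summits. Bars are 95% Poisson intervals. Class II, with 29.0 shared summits per Mb, lies below the other segments, which lie between 67.4 and 78.9.

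All 4 segments were denser than the sequence outside the complex, which had 15.6 shared summits per Mb. Class III was 5.07-fold (95% interval 3.83 to 6.59, adjusted p = 1.47e-21), class I 4.33-fold (3.60 to 5.17, adjusted p = 5.89e-39), extended class II 4.91-fold (3.29 to 7.05, adjusted p = 1.21e-11) and class II 1.87-fold (1.23 to 2.72, adjusted p = 0.00332) by the same exact test over the 4 segments. With the lists cut to their 10000 highest scores, the class II excess did not pass the exact test, as 4 shared summits gave 1.96-fold (adjusted p = 0.151). Relative to each library's own average, all summits had a density of 5.06 ± 0.258 in class III, 4.02 ± 0.0902 in class I, 4.45 ± 0.232 in extended class II and 1.76 ± 0.186 in class II (SD, n = 2 libraries). The gaps between class II and each of the other segments were larger than these spreads. The bordering 1 Mb on the telomeric side had 30.0 shared summits per Mb (20.2 to 42.8), close to class II, and that on the centromeric side had 46.0 (33.7 to 61.4). The rest of chromosome 6 had 15.7 per Mb (15.1 to 16.3). How much of each segment can be mapped, and how many copies of it the cells carry, were not measured. Gene and promoter density was not compared with the outside, so its part in these differences was not tested. The outside was counted over full chromosome lengths, with no unsequenced gaps or centromeres taken out, which would lower its density. The windows of 100 kb described below cover the chromosomes in the same way.

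Density also varied inside the segments. The stretches named next were chosen after their values were seen and carry no test. Class I differed between its cytogenetic bands. Its 0.76 Mb in 6p22.1 had 46.1 shared summits per Mb (32.1 to 64.0), and its 1.08 Mb in 6p21.33 had 82.4 (66.2 to 101.4). The part of class III in 6p21.33 had 85.5 per Mb (64.0 to 111.8). Band 6p21.32 had 33.3 per Mb in its 0.09 Mb of class III (3 shared summits, 6.87 to 97.4), 76.3 in extended class II (51.1 to 109.6) and 29.0 in class II (19.1 to 42.2). Bases 30400001 to 31200000 held 74 of the 124 shared summits of class I. In class III, bases 31500001 to 31900000 held 43 of the 56 shared summits, and the 290 kb beyond them held 13. In extended class II, bases 33200001 to 33400000 held 22 of 29.

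Class II was uneven as well. Bases 32200001 to 32800000 held 9 shared summits, or 15.0 per Mb (6.86 to 28.5), with 10 summits in replicate 1 and 13 in replicate 2. This lies next to the average outside the complex. The next 200 kb, bases 32800001 to 33000000, held 18 shared summits (53.3 to 142.2 per Mb), with 20 summits in replicate 1 and 27 in replicate 2. These 200 kb thus had a density in the range of class III and held 66.7% of the shared summits of class II on 21.5% of its length. The 100 kb that follow held no shared summit and 1 summit in each library.

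Windows of 100 kb, counted from base 1 of the chromosome, were set beside the whole genome. Of 30353 windows, 4.91% held at least 7 shared summits, a limit chosen after the values were seen. In the complex 19 of 38 windows did so, made up of 4 of 7 in class III, 11 of 18 in class I, 2 of 4 in extended class II and 2 of 9 in class II. The median window held 8 shared summits in class III, 7 in class I, 7.5 in extended class II and 1 in class II. No shared summit lay in 49.3% of all windows, and in the complex this was so for 2 windows, both in class II.

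The 5 fullest windows lay in 3 of the segments. Bases 30700001 to 30800000 in class I held 15 shared summits, with 23 summits in replicate 1 and 20 in replicate 2, and 0.175% of all windows held as many. Bases 31700001 to 31800000 in class III held 14, with 18 and 21 in the libraries, a number reached by 0.293% of all windows. Bases 30600001 to 30700000 in class I and 33300001 to 33400000 in extended class II held 12 each, and bases 31800001 to 31900000 in class III held 11. Among these 5 the libraries differed most in the last, with 12 summits in replicate 1 and 20 in replicate 2.

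**Figure D2:**
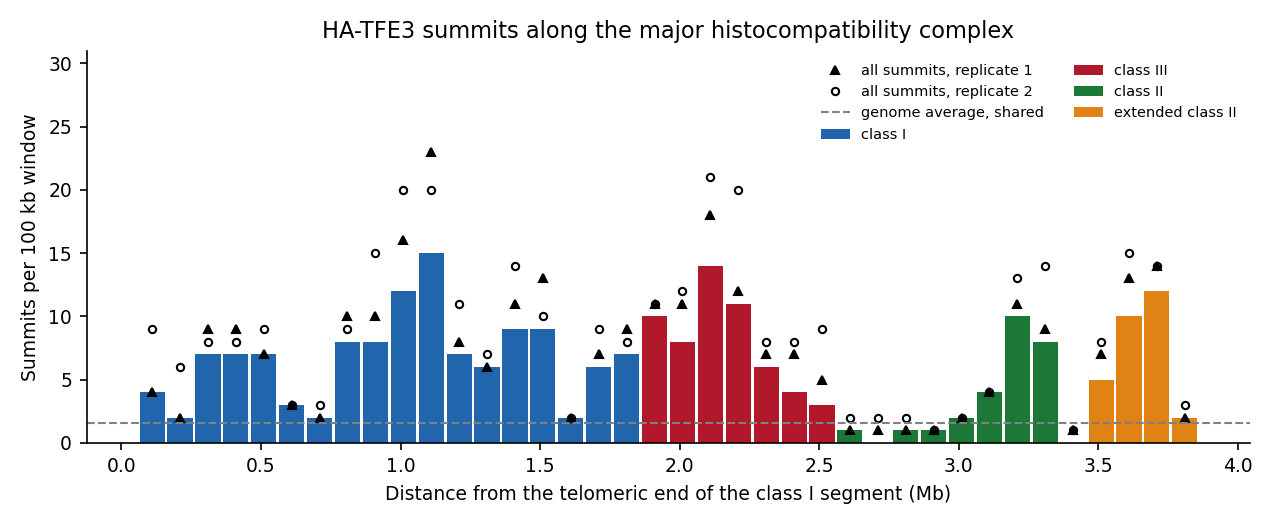
Summits in the 38 windows of 100 kb that lie wholly in the complex, by distance from the telomeric end of the class I segment. Bars give shared summits, coloured by segment, symbols give all summits of each library, and the dashed line is the genome average of shared summits. The bars reach 15 in class I, 14 in class III and 12 in extended class II, while most of class II lies near the line except for windows of 10 and 8.

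Each segment also had stretches without a shared summit. The longest in class II ran over 218.3 kb, from base 32223157 to 32441447, or 23.5% of the segment, with 1 summit in replicate 1 and 5 in replicate 2. The longest in class III covered 109.2 kb from base 31939926 to 32049148, with 1 and 4 summits. That of class I covered 94.9 kb from base 31239952 to 31334809, with 0 and 2. That of extended class II covered 77.6 kb up to the next shared summit at the end of the segment, from base 33422304 to 33499919, with 0 and 2. The stretches were cut at the replicate 1 bases of shared pairs. Each replicate 2 count therefore includes at least 1 partner of a bounding pair, in class II those at bases 32223162 and 32441443. The counts of the 2 libraries in these stretches thus cannot be compared.

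Shared summits lay close together. The median gap to the next was 6959 bp in class III, 6547 bp in class I, 7708 bp in extended class II and 12689 bp in class II, against 17712 bp over the genome. Of the gaps between neighbouring shared summits in the genome, 8.7% were under 1 kb. In the segments 8 of 55 such gaps in class III, 16 of 123 in class I, 1 of 28 in extended class II and 4 of 26 in class II were that short. With summits less than 1 kb from the one before merged, 48 loci remained in class III, 108 in class I, 28 in extended class II and 23 in class II. The densities were then 67.6, 58.7, 73.7 and 24.7 loci per Mb in the same order, so extended class II stood above class III.

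The next comparison asked whether summits of the segments were found in the other library equally often. In replicate 1, 76.1% of all summits of the list had a partner, and in replicate 2, 65.2%. In class III, 56 of 71 summits of replicate 1 were shared (78.9%, 95% exact binomial interval 67.6 to 87.7), and 56 of 89 of replicate 2 (62.9%, 52.0 to 72.9). In class I these shares were 80.5% (73.4 to 86.5) and 71.3% (63.9 to 77.9). In extended class II they were 80.6% (64.0 to 91.8) and 74.4% (57.9 to 87.0). In class II they were 87.1% (70.2 to 96.4) and 64.3% (48.0 to 78.4). Every interval covers the share of the whole list of its library. The libraries put the segments in different orders, with class II highest in replicate 1 and extended class II highest in replicate 2.

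No pair of segments differed in sharing by the two-sided Fisher's exact test in either library. The count at an unadjusted p under 0.05 was 0 of 6 in each library, and the lowest adjusted p was 1 in replicate 1 and 0.68 in replicate 2. The widest difference was 11.4 percentage points in replicate 2, where class III had 62.9% and extended class II 74.4% (odds ratio 0.585, Fisher's exact p = 0.229 before adjustment). With 31 to 174 summits per segment and library, the intervals above span 13.1 to 30.4 points, and these counts limit how small a difference could be seen. Against the summits outside the complex, no segment passed the test either (lowest adjusted p 0.438 in replicate 1 and 0.442 in replicate 2).

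**Figure D3:**
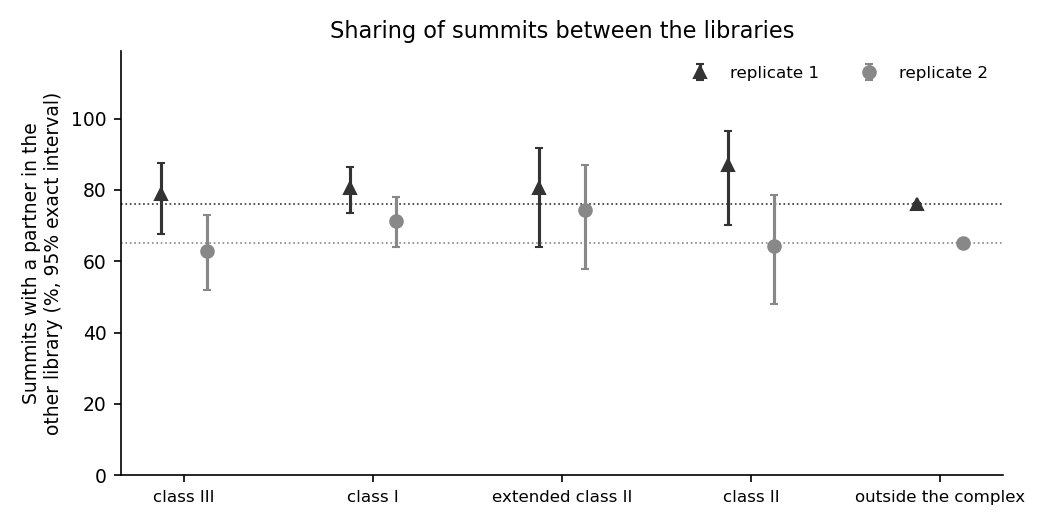
Percentage of summits of each library that had a partner in the other library within 100 bp, in the 4 segments and outside the complex. Bars are 95% exact binomial intervals and dotted lines mark the shares outside the complex. The intervals of the 4 segments overlap each other within each library.

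Of all unpaired summits, 42.5% of replicate 1 and 31.4% of replicate 2 had a summit of the other library within 1 kb. Class III had 15 unpaired summits in replicate 1 and 33 in replicate 2, of which 10 and 15 had such a summit nearby. In class I, 15 of 30 and 24 of 50 had one. In extended class II it was 3 of 7 and 4 of 10, and in class II 2 of 4 and 4 of 15. The median score percentile, meaning how far up its list a summit stood as a percentage of that list, was 31.5 for the unpaired summits of the complex in replicate 1 and 28.2 in replicate 2. Outside the complex it was 24.8 and 27.4. The shared summits of the complex had medians of 65.0 and 67.9, against 58.9 and 64.3 outside, so paired summits stood above unpaired ones in the complex as they did in the lists as a whole.

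Some of the highest-scoring places of the complex were not counted as shared because their summits lay more than 100 bp apart. The highest score of replicate 2 in the complex, 79.95, was at base 32939650 in class II, rank 42 in the list. The nearest summit of replicate 1 lay 190 bp away at base 32939840 with a score of 47.3, at percentile 98.8. In class III, base 31795368 of replicate 1 scored 63.9 and base 31795184 of replicate 2 scored 64.1, at 184 bp from each other. Both were at percentiles above 99.7. Over the complex 11 further pairs formed when the limit was 200 bp and their distance was over 100 bp, of which 3 were in class III, 6 in class I, 1 in extended class II and 1 in class II. They came to 4.66% of the pairs within 100 bp, against 5.56% outside the complex.

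Scores were compared next, by rank within a list only, since their scale is not given. The median percentile was 62.2 in replicate 1 and 57.2 in replicate 2 for class III, 55.1 and 54.1 for class I, 57.0 and 58.3 for extended class II, and 68.8 and 52.6 for class II. The interquartile range of class III ran from 32.9 to 90.8 in replicate 1 and from 30.3 to 88.1 in replicate 2. In class I it ran from 32.0 to 77.1 and from 30.3 to 77.4. The lowest scores of the complex were 1.99 in replicate 1 and 1.53 in replicate 2.

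Above the median of the list lay 50.8% of all summits in replicate 1 and 49.6% in replicate 2, with tied scores given their mean rank. In class III it was 45 of 71 and 51 of 89 summits (63.4% and 57.3%), and in class I 89 of 154 and 92 of 174 (57.8% and 52.9%). In extended class II it was 19 of 36 and 21 of 39 (52.8% and 53.8%), and in class II 22 of 31 and 23 of 42 (71.0% and 54.8%). No pair of segments differed by Fisher's exact test in either library (lowest adjusted p 0.582 in replicate 1 and 1 in replicate 2), and 0 of 6 pairs had an unadjusted p under 0.05. None of the 4 segments passed the test against the summits outside the complex (lowest adjusted p 0.0855 in replicate 1 and 0.633 in replicate 2), although class III and class II had an unadjusted exact p under 0.05 in replicate 1. The complex as a whole had 175 of 292 summits above the median in replicate 1 (59.9%, odds ratio 1.45, unadjusted Fisher's exact p = 0.00183). In replicate 2 it had 187 of 344 (54.4%, odds ratio 1.21, unadjusted Fisher's exact p = 0.0836). For class II the mean of the libraries was 62.9% ± 11.5, against 50.2% ± 0.803 outside (SD, n = 2).

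At the upper end of the scores class III was the only segment that passed the test against the summits outside the complex. Extended class II leaned the same way without passing it. Above the 90th percentile lay 9.94% of all summits of replicate 1 and 9.99% of replicate 2. In class III 20 of 71 summits of replicate 1 were above it (28.2%, 95% exact interval 18.1 to 40.1) and 17 of 89 of replicate 2 (19.1%, 11.5 to 28.8). The odds ratio against the outside was 3.57 in replicate 1 (Fisher's exact test, adjusted p = 5.05e-05 over the 4 segments) and 2.13 in replicate 2 (adjusted p = 0.0297). In extended class II 7 of 36 and 8 of 39 summits were above the 90th percentile (19.4% and 20.5%), so in replicate 2 its share was above that of class III. Its odds ratios were 2.19 and 2.33 (exact test, adjusted p = 0.167 and 0.105). The share in class I was 13.6% and 12.6% (exact test, adjusted p = 0.181 and 0.337), and in class II 9.68% and 11.9% (adjusted p = 1 and 0.606). Over the whole complex, class III included, 51 of 292 and 52 of 344 summits were above it (17.5% and 15.1%). Its odds ratios against the outside were 1.92 and 1.61 (unadjusted Fisher's exact p = 7.38e-05 and 0.00277). Between segments no pair passed, the nearest being class III against class I in replicate 1, at 28.2% and 13.6% (exact test, adjusted p = 0.0886). Without adjustment, 2 of these 6 pairs in replicate 1 and 0 in replicate 2 had an exact p under 0.05. The 90th percentile was an alternative limit, and at the median class III did not pass the test against the outside in either library. These tests count single summits, and neighbouring summits are not independent, so their p-values describe the lists. The 2 libraries largely share these places, as 17 shared pairs of class III had a mean percentile over 90. Their results are thus not independent of each other. This limit was not tried on merged summits.

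**Figure D4:**
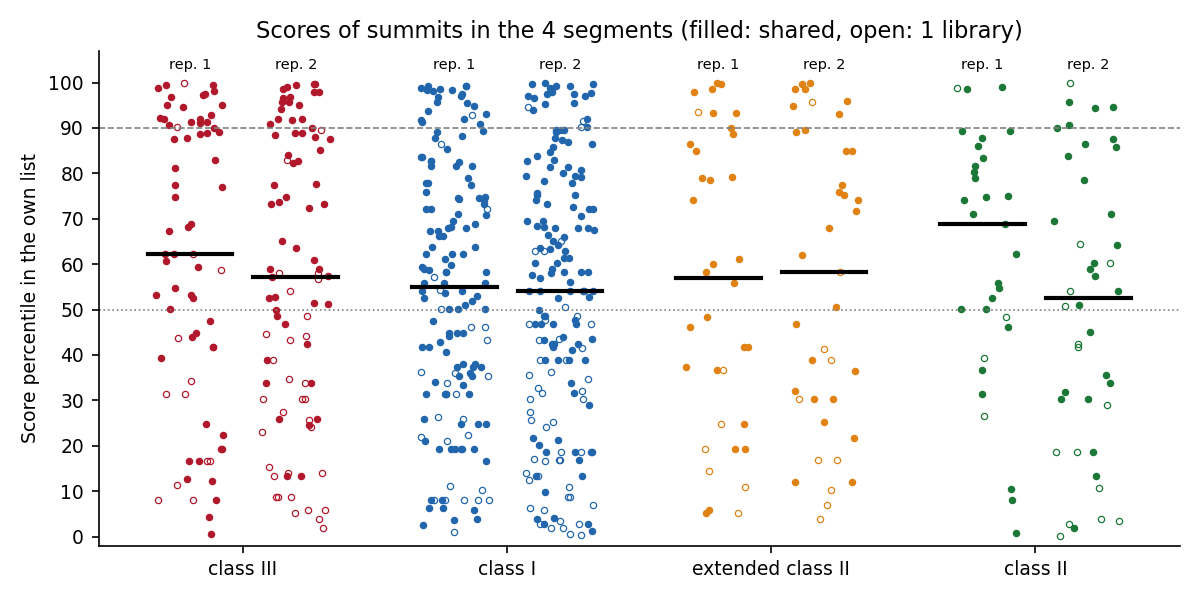
Score percentile of every summit in the complex in its own list, by segment and library. Filled points are shared summits, open points have no partner, black bars are medians, and lines mark the 50th and 90th percentiles. Medians lie between 52.6 and 68.8. Above the upper line lie 20 and 17 summits of class III (replicates 1 and 2), 21 and 22 of class I, 7 and 8 of extended class II and 3 and 5 of class II.

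Density was also compared with only high scores kept, which draws largely on the same high-scoring summits. With each list cut to its 10000 highest scores, class III held 21 shared summits and class I held 18 on a longer segment. Class III then had 3.02-fold the density of class I (exact conditional binomial test, adjusted p = 0.00277), and 13.5-fold that outside the complex. Extended class II, with 7 shared summits, had 8.38-fold the density outside (exact test, adjusted p = 3.64e-05). Class III over extended class II was 1.61-fold and did not pass (exact test, adjusted p = 0.325). Class I was no longer past the test over class II, at 2.27-fold with 18 and 4 shared summits (exact test, adjusted p = 0.214).

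The shared pairs with the highest mean percentile, 3 in each segment, are given by their base in replicate 1. In extended class II base 33359206 scored 62.0 in replicate 1 and 71.6 in replicate 2, base 33386071 scored 67.7 and 60.5, and base 33378138 scored 45.7 and 48.8. The pair at base 33359206 ranked 78 among all shared pairs of the genome and the pair at base 33386071 ranked 109. In class III base 31783138 scored 52.3 and 60.9, base 31707692 scored 46.9 and 51.4, and base 32163669 scored 55.4 and 44.4, with ranks of 237, 533 and 603. These pairs of extended class II and class III all lay above percentile 97.9 in both lists.

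In class I base 30539133 scored 50.9 and 62.8, base 30585209 scored 51.4 and 59.9, and base 30720268 scored 47.0 and 66.0, with ranks of 243, 265 and 329. All 3 scored higher in replicate 2. In class II base 32812483 scored 48.8 and 33.2, base 32921056 scored 46.1 and 32.9, and base 32910730 scored 24.1 and 27.1, with ranks of 1630, 1813 and 5559. All 3 lay in the dense stretch of class II described above, as did base 32939650 of replicate 2. The best pairs of class II thus ranked below those of the other segments, but its best place was not counted as a pair at 100 bp.

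The median distance between paired summits was 29 bp in class III, 28 bp in class I, 30 bp in extended class II and 26 bp in class II, against 26 bp outside the complex. Spearman's correlation of the 2 scores was 0.839 over 56 pairs in class III, 0.672 over 124 in class I, 0.819 over 29 in extended class II and 0.743 over 27 in class II, against 0.729 over 47160 pairs outside. These are descriptions across summits of the same libraries, with no test. Above a mean percentile of 90 lay 17 pairs of class III (30.4%), 18 of class I (14.5%), 6 of extended class II (20.7%) and 3 of class II (11.1%), against 11.7% outside.

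**Figure D5:**
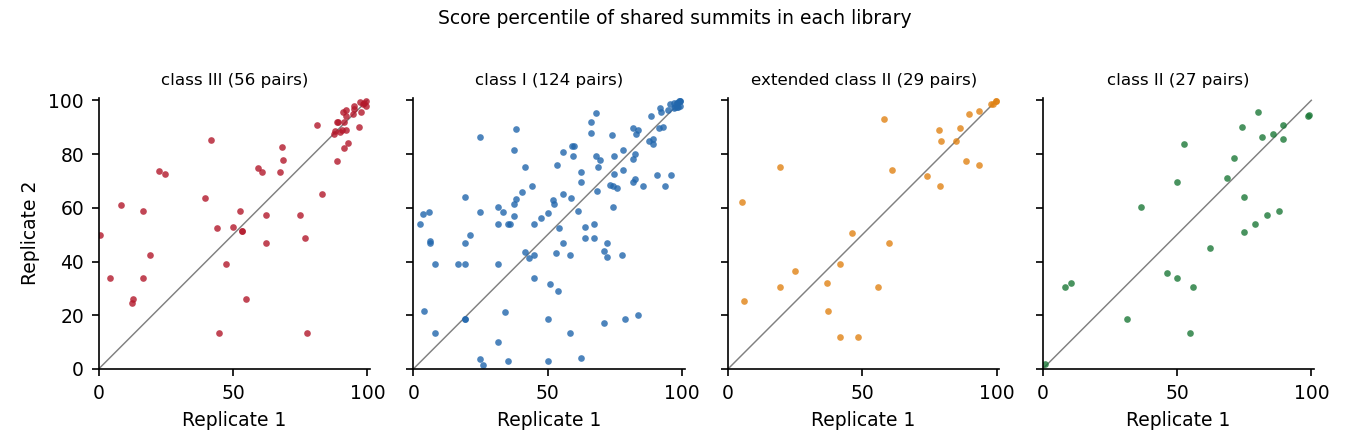
Score percentile of the 236 shared summits in replicate 1 (horizontal) and replicate 2 (vertical), by segment, with the line of equal rank. Points gather near the upper corner in class III, where 17 of 56 pairs have a mean percentile over 90.

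Replicate 2 listed more summits than replicate 1 in every segment. The ratio of its count to that of replicate 1 was 1.25 in class III, 1.13 in class I, 1.08 in extended class II and 1.35 in class II, against 1.17 over the genome. At the edges of the complex the outermost summits lay well inside or on the limit. The summits nearest the telomeric limit lay 30484 bp inside in replicate 1 and 30528 bp inside in replicate 2, and those outside it lay 18606 and 18589 bp away. On the centromeric side the last summits inside lay 80 and 120 bp from the limit, with scores of 10.7 and 8.21, so a shift of the limit by that distance would leave this pair out.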

How the data were processed

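HA-TFE3 binding was mapped in HK-2 cells by ChIP-seq, with 2 ChIP libraries and 1 input DNA library grouped by their titles. The authors deposited 1 list per ChIP library, which gives summits of 1 bp with a name and a score, used here only as a rank within the list. The build is hg19, per the submitters' processing notes. The sources used here do not give the aligner, peak caller, thresholds or use of the input. The lists hold no read counts, so the depth is unknown, and the number of summits depends on depth and threshold.

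Positions were made 1-based. Of 62322 and 72692 summits, those on chromosomes 1 to 22 and X were kept. Lengths and bands came from the hg19 table of circlize 0.4.16. Pairs were mutual nearest summits within 100 bp. Densities carry exact Poisson intervals and shares exact (Clopper-Pearson) intervals at 95%. Pairwise tests were adjusted by Benjamini-Hochberg within each library and measure. The steps were tested on simulated lists. These held more summits per segment, placed independently, so they do not show the power of the tests here. Alternatives were limits of 50, 200 and 500 bp, summits above the median score, the 10000 highest scores, merging within 1 kb, boundaries moved by 50 kb, each library alone, the 90th percentile and shared summits only. Named were the 3 best pairs and the longest empty stretch of each segment, the 5 fullest windows and the edges. Segments and gene lists were chosen with earlier results of these data known. Of the listed genes, 18 of 21 in class III, 14 of 19 in class I, 15 of 17 in extended class II and 15 of 16 in class II had a RefSeq promoter. Python 3.11.15, NumPy 2.4.6, pandas 2.3.3, SciPy 1.17.1, matplotlib 3.10.9 and R 4.3.3 were used.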

Additional observations from a re-analysis of the deposited data

How the results depend on the processing

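Of the 6 density comparisons, class III over class II (2.35-fold to 6.88-fold) and extended class II over class II (2.27-fold to 4.28-fold) passed the test under all 10 alternatives run, as did class III, class I and extended class II over the outside. Among the 10000 highest-scoring summits, class I over class II lost the call at 2.27-fold, class III over class I gained it at 3.02-fold, and class II over the outside lost it at 1.96-fold. Class III over class I also gained it in replicate 2 alone (1.33-fold) and not in replicate 1 alone (1.19-fold). Class III over extended class II, never past the test, reversed to 0.918-fold with summits merged within 1 kb and to 0.898-fold with boundaries 50 kb towards the centromere. No pair of segments passed for sharing or score under any alternative run, while 26 of 96 differences in sharing and 16 of 60 in score changed sign. Against the outside, 0 segments passed for sharing or for score at the median. With merging, 2 passed for score in replicate 1 (class III and class I) and 1 for sharing in replicate 2 (class I). Boundaries 50 kb towards the telomere gave 1 for score in replicate 1 (class II), and the 90th percentile gave 1 in each replicate (class III). The cause was not tested. Comparisons with the outside were added to the alternatives after seeing the data. All segments were read in the same 2 libraries, but no test paired by library was run, since 2 libraries are too few for one. The labels number only the ChIP libraries. With 27 and 29 shared summits, counts limit statements on class II and extended class II.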
